A study of Mus musculus with 8 samples.

Results

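The cytosolic ribosomal protein genes were taken as every RefSeq protein-coding gene on chromosomes 1 to 19 whose symbol is Rpl or Rps followed by a digit, leaving out the Rps6k kinases. This gave 83 of 20665 genes: 40 encode proteins of the large subunit, 29 encode proteins of the small subunit, and 14 are paralogs or genes that share only the symbol. Rps19bp1, a protein that binds RPS19, shares only the symbol, and retrogene copies such as Rpl34-ps1 and Rps27rt were counted with the paralogs. Open chromatin was mapped by ATAC-seq, which uses the transposase Tn5 to insert sequencing adapters into exposed DNA, in 8 libraries of satellite cells, the muscle stem cells, of C57BL/6 mice. There were 4 groups of 2 libraries. QSC were freshly isolated cells, and ASC were isolated 2.5 days after muscle injury. The other 4 libraries came from satellite cells grown under differentiation conditions, 2 with control siRNA and 2 with siRNA directed at LncMyod, a noncoding transcript from the neighbourhood of Myod1. Per the labels, LncMyod siRNA was present for 48 h, and a duration for the control siRNA was not used here. ATAC-seq does not measure RNA, so these files hold no check of the knockdown. Whether both libraries of a group come from different animals or cultures is not stated in the labels, and each p-value is therefore relative to a spread between samples that may be technical.

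Ribosomal proteins assemble with ribosomal RNA into the large subunit, which forms peptide bonds, and the small subunit, which decodes messenger RNA. Their genes are among the most actively transcribed housekeeping genes, and many of their messenger RNAs begin with a C followed by pyrimidines, the terminal oligopyrimidine (TOP) tract through which mTORC1 controls their translation. Quiescent satellite cells make little protein, and ribosome production rises as they leave quiescence to divide.

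Promoter sequences of the RefSeq table for GRCm38.p6, whose chromosomes have the coordinates of mm10, were found for 63 of the 83 genes, with 75 annotated starts. The first 5 sequences below are those of Rps10, the member whose peak width passed a test, of canonical members with wide peaks, and of the muscle paralog Rpl3l, which had no peak at its start. The last 3 belong to genes whose annotated outer end lies far from their peak, and were chosen after the values were seen. Each run holds 75 bases before the start and 25 from the start on, 5′ to 3′ on the gene's strand, and capitals mark matches to the motifs described further on.
Rps10: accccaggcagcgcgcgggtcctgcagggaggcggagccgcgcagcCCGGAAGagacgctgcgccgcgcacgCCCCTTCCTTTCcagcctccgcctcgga
Rpl4: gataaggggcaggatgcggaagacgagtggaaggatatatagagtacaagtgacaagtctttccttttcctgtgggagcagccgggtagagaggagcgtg
Rpl41: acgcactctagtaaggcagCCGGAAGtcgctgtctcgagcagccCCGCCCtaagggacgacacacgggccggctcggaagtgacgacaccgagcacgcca
Rps15a: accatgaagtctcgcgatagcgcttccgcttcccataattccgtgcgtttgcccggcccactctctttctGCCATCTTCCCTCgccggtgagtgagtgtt
Rpl3l: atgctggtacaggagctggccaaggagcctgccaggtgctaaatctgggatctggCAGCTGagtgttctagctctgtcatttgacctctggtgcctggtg
Rps2: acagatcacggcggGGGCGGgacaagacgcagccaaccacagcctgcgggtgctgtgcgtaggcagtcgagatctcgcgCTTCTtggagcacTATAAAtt
Rps27l: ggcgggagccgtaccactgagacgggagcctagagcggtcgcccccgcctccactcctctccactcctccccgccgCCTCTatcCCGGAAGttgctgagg
Rpl22: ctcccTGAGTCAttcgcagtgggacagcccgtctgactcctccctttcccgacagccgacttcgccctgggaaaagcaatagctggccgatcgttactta
The windows are chr17:27635220-27635319 on the minus strand for Rps10, chr9:64173312-64173411 on the plus strand for Rpl4, chr10:128549144-128549243 on the minus strand for Rpl41, and chr7:118116123-118116222 on the minus strand for Rps15a. They are chr17:24727751-24727850 for Rpl3l, chr17:24719988-24720087 for Rps2, chr9:66946011-66946110 for Rps27l and chr4:152325651-152325750 for Rpl22, all on the plus strand. A peak covered the start of every one of these in all 8 libraries except that of Rpl3l, which was covered in 0 of 8.

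The files are lists of broad peaks, 1 per library, with 59666 to 95449 peaks that cover 42.4 to 64.0 Mb. They hold no read counts, so the depth behind each value is unknown, and the absence of a peak does not show closed chromatin. LncMyod siRNA replicate 1 had the most peaks and the most covered sequence, and ASC replicate 2 the fewest and the least. All 8 markers of satellite cells examined, among them Pax7 and Myf5, had a peak in every library. Of 6 leukocyte markers, Ptprc, Itgam, Csf1r and Laptm5 had no peak in any library. Cd3e had no peak in QSC and one in the other 6 libraries. The summed scaled width of the leukocyte list was 0 bp in both QSC libraries, 1394 and 1575 bp in ASC, 3065 and 3858 bp with control siRNA, and 2489 and 3089 bp with LncMyod siRNA. Of 5 endothelial markers, 2 had a peak in each QSC library, 4 in each ASC library and 3 in each cultured library: Kdr and Tek had one in all 8, Cdh5 in all but QSC, and Pecam1 in none. Their summed scaled width was 2210 and 2941 bp in QSC, 3838 and 3197 bp in ASC, 3291 and 2263 bp with control siRNA, and 3237 and 3999 bp with LncMyod siRNA. Of 5 fibroadipogenic markers, 1 to 3 had a peak in a library: Col1a1 had one in all 8, Pdgfra in ASC replicate 2, and Dcn, Ly6a and Lum in 1 or 2 freshly isolated libraries each. Their summed scaled width was 1397 and 913 bp in QSC, 2107 and 2098 bp in ASC, and 582 to 743 bp in the cultured libraries. The part of these 3 lists in the results below was not tested.

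Nearly every gene for a ribosomal protein proper was marked by a peak in every library, whatever the state of the cells. With a peak counted when it came within 1 kb of either end of the gene, 73 of the 83 genes (88.0%) had one in all 8 libraries, against 12420 of all 20665 protein-coding genes (60.1%). The share was 39 of 40 for the large subunit and 28 of 29 for the small subunit, but 6 of 14 for paralogs and others. Mitochondrial ribosomal proteins, which belong to a separate ribosome, had one in 74 of 78 cases (94.9%).

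Both canonical genes without a peak by this rule, Rps2 and Rpl17, had a strong peak inside the gene. Rps2, a small-subunit protein near the channel where messenger RNA enters, had a peak that began 1440 to 1470 bp inside the annotated gene in all 8 libraries, with widths of 868 and 851 bp in QSC, 754 and 680 bp in ASC, 745 and 721 bp with control siRNA, and 815 and 728 bp with LncMyod siRNA. The peak was present and of similar width in every group, and it covered the start of the printed Rps2 sequence, which lies 1942 bp inside the gene's outer end. Rpl17, a large-subunit protein at the exit of the peptide tunnel, had a peak of 763 to 953 bp that began 1125 to 1339 bp inside the gene in all 8 libraries. When the whole gene body with 1 kb on each side was searched, 77 of 83 genes, including all 69 canonical ones, had a peak in every library, against 69.9% of all genes.

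The 1 kb limit also divided a single peak of Rps27l, a paralog of Rps27 that is known as a target of p53. That peak began 997 and 987 bp inside the gene in QSC, 946 and 1009 bp in ASC, 1001 and 1004 bp with control siRNA, and 1021 and 1004 bp with LncMyod siRNA. It was therefore counted in both QSC libraries and ASC replicate 1, which fell just inside the limit, and left out in the other 5, which fell just outside. The peak itself was 991 to 1065 bp wide in all 8 libraries and covered the annotated start 1462 bp inside the gene in each of them. Rps27l thus had a peak at its start in every library, and no difference between groups is read from its counts under the 1 kb rule.

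Other annotated ends were also far from the promoter. Rpl22, a large-subunit protein that also binds other RNAs, had a peak of 718 to 882 bp at its inner start, 1290 bp from the outer end, in all 8 libraries. The 1 kb rule caught only its smaller peak of 302 to 651 bp near the opposite end. The inner start of Rpl18 lies 2604 bp and that of Rpl19 4707 bp from the outer end, both were covered in all 8 libraries, and the rule caught another peak instead. For Rpl19, which helps to bridge the subunits, that other peak also held an end of Cacnb1, a calcium channel subunit gene. Among all 75 annotated starts of members, 65 (86.7%) were covered in every library, against 53.9% of 20085 starts in the table.

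Under the 1 kb rule the paralogs divided into those with a peak throughout and those with none or few. Rpl7l1, Rpl36al, Rpl22l1, Rps19bp1, Rpl3l and Rpl34-ps1 had a peak in all 8 libraries. Rpl10l, a paralog known from the testis, and Rpl32l, Rpl31-ps12 and Rps27rt had no peak in any, also when the gene body was searched. Rpl39l, a further paralog known from male germ cells, had a peak of 263 bp within 1 kb of an end in LncMyod siRNA replicate 1, and a peak inside the gene in all 4 cultured libraries. Rpl37rt had a peak of 1054 bp by this rule in control siRNA replicate 1 and of 1096 bp in LncMyod siRNA replicate 2, and a separate peak of 575 to 1049 bp inside the gene in all 8 libraries. Rps23rg1 had peaks of 200 and 301 bp in the control siRNA libraries and of 428 bp in LncMyod siRNA replicate 1, and a peak farther inside the gene in LncMyod siRNA replicate 2. Retrogene copies are near-identical to their parent genes, and the handling of reads with several matches was not examined here.

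Rpl3l, the striated-muscle paralog of Rpl3, had a peak in every library, but its strongest peak did not cover its annotated start in any of them. Its peak near the far end of the gene also held an end of Msrb1, the gene of a methionine sulfoxide reductase. Its width was 1076 and 927 bp in QSC, 1161 and 1117 bp in ASC, 816 and 642 bp with control siRNA, and 811 and 1077 bp with LncMyod siRNA. The values with control siRNA lay below those of ASC, and the LncMyod siRNA libraries overlapped QSC and control siRNA but not ASC. The difference between control siRNA and ASC missed the threshold (log2 change -0.53, SE 0.17, adjusted p = 0.194 by limma).

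**Figure D1:**
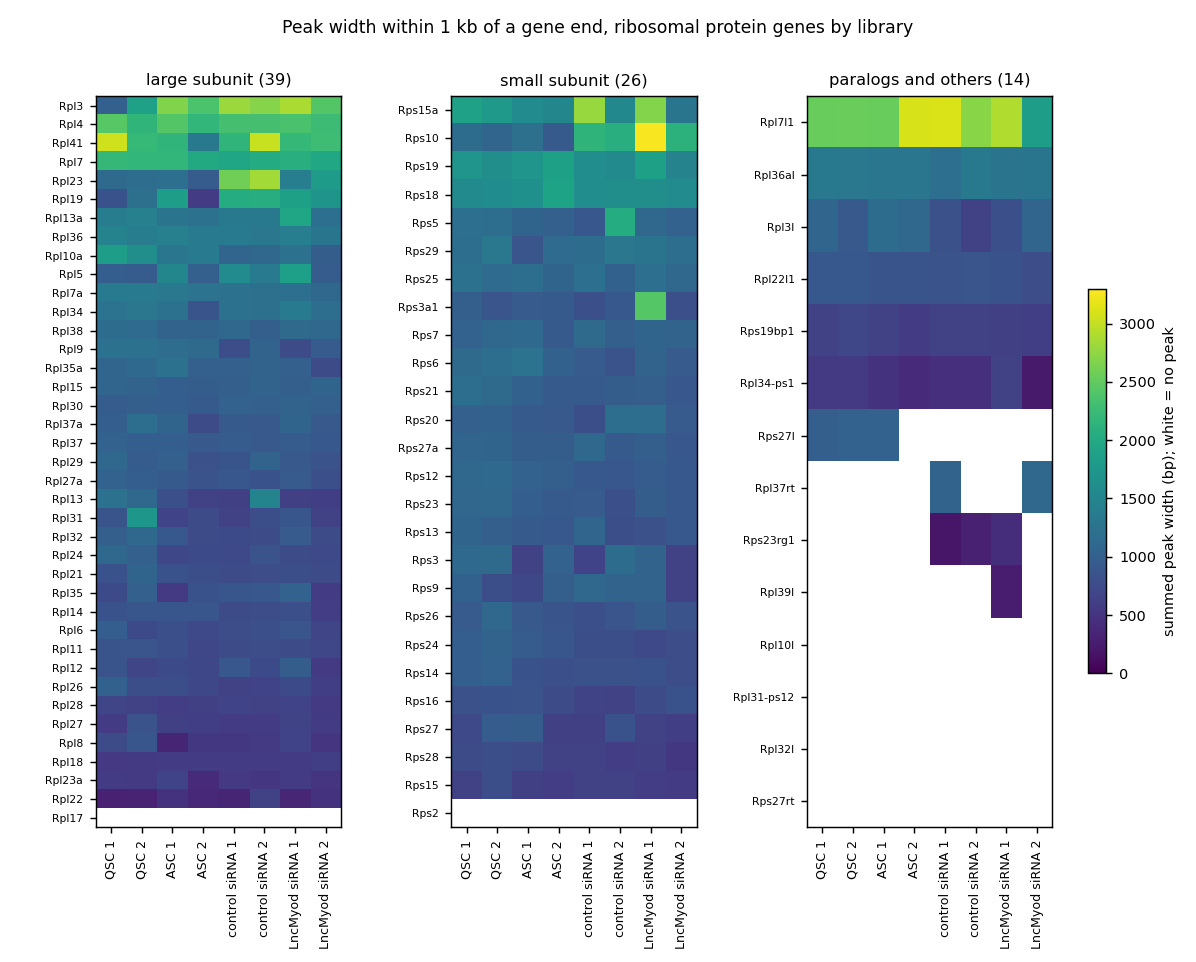
Summed width in bp of the peaks within 1 kb of a gene end for 79 of the 83 genes (rows, ordered by mean width within the 3 classes) in each of the 8 libraries (columns). Colour gives the width and white marks no peak: 1 row of the large-subunit panel (Rpl17) and 1 row of the small-subunit panel (Rps2) are white throughout, and the paralog panel holds the remaining white cells.

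Where they had a peak in every library, ribosomal protein genes had narrower summed peaks than the typical gene. The median of the 73 genes was 1043 and 1072 bp in QSC, 975 and 925 bp in ASC, 905 and 923 bp with control siRNA, and 994 and 896 bp with LncMyod siRNA. Over all 12420 genes with a peak in every library the medians were 1134 and 1111 bp, 1163 and 1076 bp, 1056 and 1068 bp, and 1144 and 1015 bp in the same order. The members' median was below that of all genes in each of the 8 libraries. Both of the QSC values were above the other 6 for members, which was not so for all genes. Small-subunit genes had medians of 898 to 1111 bp and large-subunit genes of 841 to 1059 bp.

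The fold enrichment of the strongest peak, a value of the authors' peak caller, placed the members in the upper part of each list. Their median percentile within a library's list was 82.4 to 89.7, where 100 is the strongest peak. Most genes with a peak at an end are placed there, so the rank was also taken among the 12420 genes with a peak in every library. On that scale the members' median was 53.0 and 56.3 in QSC, 55.7 and 51.1 in ASC, 57.1 and 56.1 with control siRNA, and 59.6 and 62.9 with LncMyod siRNA, where the median of all genes is 50 by construction. Small-subunit genes had a median of 51.8 to 67.3 and large-subunit genes of 43.6 to 58.9, and the small-subunit median was the higher one in each library. Mitochondrial ribosomal protein genes had narrower peaks than the cytosolic ones in every library, with medians of 800.5 to 957 bp, and higher ranks, with medians of 63.3 to 73.9.

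**Figure D2:**
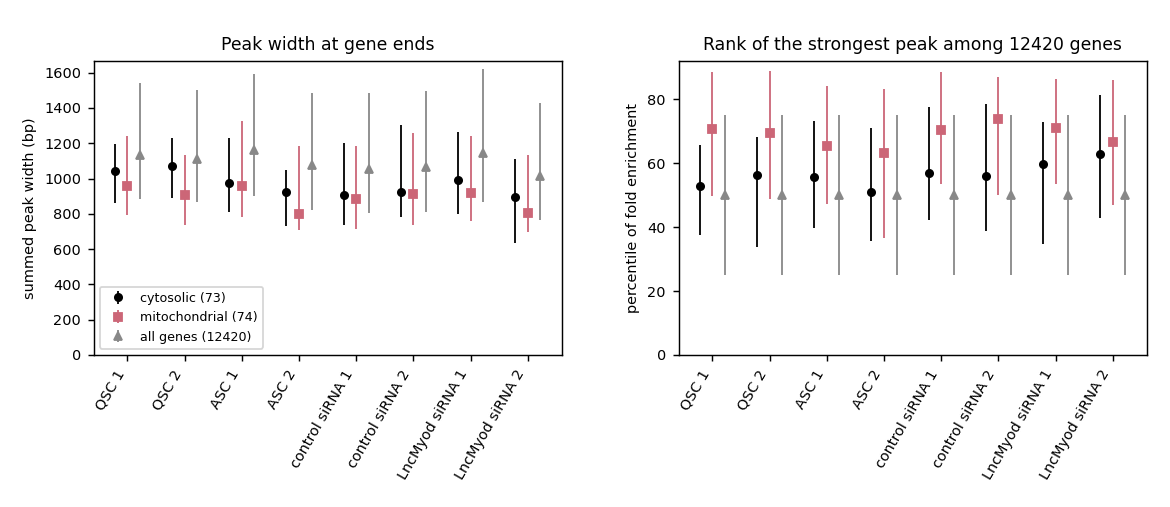
Median (symbol) and quartiles (bars) of the summed peak width in bp (left) and of the percentile of the strongest peak's fold enrichment among 12420 genes (right), by library, for 73 cytosolic and 74 mitochondrial ribosomal protein genes and for all genes. The cytosolic medians lie below those of all genes for width in each library and above 50 for rank, with the mitochondrial medians higher still in rank.

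Width and rank singled out different genes. The widest peaks belonged to Rpl7l1 (mean over 8 libraries 2663 bp), Rpl3 (2343 bp), Rpl4 (2310 bp), Rpl41 (2303 bp) and Rpl7 (2077 bp). Rpl3 and Rpl4 had a peak near each end, while the peaks of Rpl7l1, Rpl4, Rpl41 and Rpl7 also held an end of a neighbouring coding gene. Rpl4, which lines the tunnel through which the new peptide leaves, had 2439 and 2164 bp in QSC, 2421 and 2180 bp in ASC, 2332 and 2333 bp with control siRNA, and 2351 and 2258 bp with LncMyod siRNA. Its groups overlapped before scaling, while after scaling both control siRNA libraries were below both ASC libraries. Its coefficient of variation over the 8 scaled values was 9.24%. Rpl41, which encodes the very short peptide of the large subunit, ranged from 1330 bp in ASC replicate 2 to 3060 bp in QSC replicate 1. There the number of peaks differed, with a single peak over the whole gene in both QSC libraries and control siRNA replicate 2, and a peak at each end in the other 5.

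The narrowest peaks among genes with one in every library belonged to Rpl22 (415 bp), Rpl34-ps1 (475 bp), Rpl23a (545 bp), Rpl18 (578 bp) and Rpl8 (596 bp). For Rpl22 and Rpl18 the peak counted was not the one at the inner annotated start. The highest median percentiles within the lists were those of Rpl27 (99.8), Rpl21 (97.6), Rps27 (97.3), Rpl22l1 (96.4) and Rps3a1 (95.9). Rpl27, a large-subunit protein, had a fold enrichment of 8.82 to 12.2 in the 8 lists, which are not compared with each other on this scale. It was at or above percentile 97.4 among the common genes in each library, with a summed width of only 573 to 848 bp. The lowest median percentiles were those of Rpl8 (36.9), Rpl23a (37.5), Rpl19 (40.9), Rpl7 (54.7) and Rpl35 (58.7). The value of Rpl19 likewise leaves out the peak at its inner annotated starts. Rpl8 and Rpl23a were thus both narrow and weak in these lists. Rpl8 lies near the peptidyl transferase centre, and Rpl23a and Rpl35 lie at the tunnel exit. Across the 73 genes the Spearman correlation of the mean width of the strongest peak with the median percentile was -0.02, given as a description over genes that share libraries.

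**Figure D3:**
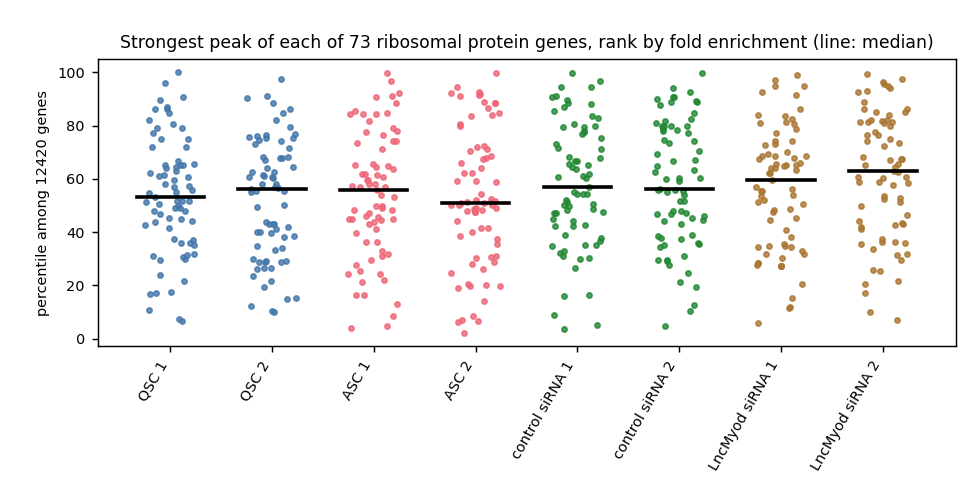
Percentile of the fold enrichment of each gene's strongest peak among 12420 genes with a peak in every library (vertical axis), by library, with 1 point for each of 73 ribosomal protein genes and a line at their median. The genes spread over nearly the whole scale in each library, and the medians lie between 51.1 and 62.9.

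Most of the strongest peaks lay over the outer end of the gene on the side of its start. For genes whose strand the promoter table gives, the strongest peak of the gene and its flanks was set against that end. It covered the end in 47 of 57 genes in ASC replicate 1 and in 49 of 59 with control siRNA replicate 1. Peaks at inner annotated starts, as in Rps2 and Rps27l, were counted as not covering it. In Rpl4 and Rpl3l, and in most libraries in Rps18, the strongest peak lay at or beyond the opposite end instead. The peaks of these genes also held ends of neighbouring coding genes, and which gene such a peak serves was not tested. Where the strongest peak covered the end on the side of the start, it reached a median of 361 to 449 bp upstream and 404 to 544 bp downstream. Its centre then lay 6 to 47 bp downstream. Both of the QSC libraries reached the farthest on each side, at 418.5 and 449 bp upstream and 516 and 544 bp downstream.

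Motifs were counted in the 250 bases before to 50 after each of the 75 member starts and of the 20085 starts in the table, on both strands unless stated. The ETS core CCGGAAG was in 24 member promoters (32.0%) against 11.9% of all promoters. The YY1 motif AAGATGGC was in 8 (10.7%) against 3.06%. A TOP tract, searched as a C followed by 4 pyrimidines that begins within 5 bases of the start on the gene's strand, was found in 32 (42.7%) against 18.8%. The capitals in Rps10 mark an ETS core before the start and a run of overlapping TOP matches across it, and those in Rps15a mark a YY1 motif on the opposite strand that runs into a TOP match.

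For other motifs the shares were closer together or lower in the members. The Sp1 motif GGGCGG was in 54.7% of member promoters against 47.0%, TATAAA on the gene's strand in 6.67% against 8.29%, and the Myc E-box CACGTG in 10.7% against 7.89%. The MyoD E-box CAGCTG was in 6.67% against 15.6%, and the AP-1 motif TGANTCA in 2.67% against 7.06%. Members had a median of 21 CpG dinucleotides in the window against 14, with a similar GC content of 57.7% against 57.0%. Among the 65 member starts and 10824 starts of all genes that were covered in every library, the shares were 35.4% against 19.6% for the ETS core, 10.8% against 4.66% for YY1, 44.6% against 19.6% for TOP and 61.5% against 71.3% for Sp1, with 22 against 23 CpG. These letters are a description of the windows, not sites of binding, and starts of the same gene share sequence.

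The comparison of ASC with QSC asked whether peaks at these genes differ once injury has activated the cells. For each gene the widths of the peaks within 1 kb of its ends were summed, scaled to the library's total covered length, and compared as log2(scaled bp + 500 bp), a scale that understates changes at genes with little covered length. Of the 83 genes, 76 had a peak in at least 2 libraries and were tested among 14638 genes. No ribosomal protein gene passed an adjusted p of 0.05 by limma. The shares called over all genes tested were also small, at 1.81% higher in ASC and 0.963% lower. An unadjusted p under 0.05 by limma was found for 6 of the 76 members and for 1893 of the 14638 genes. The members' median log2 change was -0.05 against 0.03 over all genes, and 21 of 76 were above 0 against 59.1% of all genes. Without scaling these medians were -0.09 and -0.01, and with quantile normalization -0.10 and -0.03, so the members' median was below that of all genes under each.

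Among genes with narrower peaks in ASC, Rpl8, a large-subunit protein, had 765 and 880 bp in QSC, 344 and 532 bp in ASC, 538 and 555 bp with control siRNA, and 661 and 494 bp with LncMyod siRNA, with QSC above all others (log2 change -0.47, SE 0.16, adjusted p = 0.253 by limma). The inner edge of its peak lay farther inside the gene in both QSC libraries than in the other 6. In the opposite direction, Rpl3, which lies close to the peptidyl transferase centre, had 1014 and 1889 bp in QSC, 2677 and 2368 bp in ASC, 2803 and 2696 bp with control siRNA, and 2878 and 2422 bp with LncMyod siRNA. Both QSC values were below the other 6, and LncMyod siRNA overlapped both ASC and control siRNA before scaling only. The change of 0.73 (SE 0.23) missed the threshold (adjusted p = 0.206 by limma).

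The width at Rpl3 came mainly from 2 separate places. The peak at the upper end of the gene was 799 and 1011 bp in QSC and 662 to 854 bp elsewhere. The peak beyond the lower end was 215 and 878 bp in QSC and 1634 to 1900 bp in the other 6 libraries, with a fold of only 1.98 to 2.60 in all 8. A further peak of 225 to 279 bp inside the gene was counted in both control siRNA libraries and LncMyod siRNA replicate 1. With peaks that overlap a gene end only, the change of Rpl3 turned to -0.17, and with lists of equal length it was 1.01 (adjusted p = 0.00109). Rpl5 was also wider without passing the test (0.29, SE 0.16, adjusted p = 0.602). Rpl5 binds MDM2 together with Rpl11, for which the change was -0.08 (SE 0.10, adjusted p = 0.935).

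Counts of genes whose groups do not overlap are given without a test. For scaled width, 6 of 73 members (8.22%) had both ASC libraries above both QSC libraries, against 21.3% of 12420 genes, and 18 (24.7%) had both below, against 13.7%. For the rank of the fold enrichment among common genes, 16 members (21.9%) had both ASC libraries above and 15 (20.5%) both below, against 26.4% and 26.5%. The width counts of the members lay towards lower values in ASC, and the rank counts were nearly even.

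Control siRNA was compared with ASC, which sets cells cultured towards differentiation beside cells activated in the animal. The culture and the isolation differ together with the state of the cells and cannot be told apart. Rps10, a small-subunit protein near the messenger RNA entry channel, was the 1 of 76 members that rose by limma, and 0 fell. Over all genes 1.05% were called higher and 1.91% lower. An unadjusted p under 0.05 by limma was found for 5 of 76 members and for 2591 of 14638 genes. The members' median log2 change was -0.09 against -0.15 over all genes. Scaling moved these medians: they were 0.01 and -0.03 without scaling, and 0.07 and 0.01 with quantile normalization. The number of members above 0 was 18 of 76 with scaling, 44 without and 55 with quantile normalization. Calls over all genes were 154 higher and 280 lower with scaling, 252 and 265 without, and 253 and 217 with quantile normalization. The members' median lay above that of all genes under each of the 3.

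At Rps10 the summed width was 1171 and 1072 bp in QSC, 1217 and 938 bp in ASC, 2148 and 2071 bp with control siRNA, and 3269 and 2122 bp with LncMyod siRNA. All 4 cultured libraries were above all 4 freshly isolated ones, and QSC and ASC overlapped. Scaled to the total covered length, the width was 1175 ± 58.9 bp in ASC and 2064 ± 50.7 bp with control siRNA (SD, n = 2). The log2 change was 0.61 (SE 0.10, adjusted p = 0.0354 by limma), and both control siRNA libraries were above both ASC libraries. Between ASC and QSC it was -0.00 (SE 0.10), and between the siRNA groups 0.17 (SE 0.10, adjusted p = 0.934).

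The wider signal at Rps10 extended upstream of its promoter, and its peaks also held an end of Gm15420, a neighbouring noncoding gene. The peak over the printed start was 905 and 809 bp in QSC, 834 and 938 bp in ASC, 1556 and 1559 bp with control siRNA, and 2730 and 1581 bp with LncMyod siRNA. Its edge inside the gene was at a similar place in all 8 libraries, and its outer edge was farther out in the cultured ones. A second, weaker peak beyond the 3′ end of the gene was 266 and 263 bp in QSC, 383 bp in ASC replicate 1, absent in ASC replicate 2, and 512 to 592 bp in the cultured libraries. The fold enrichment did not follow the width: the percentile among common genes was 63.9 and 64.6 in QSC, 61.4 and 38.5 in ASC, 48.4 and 46.7 with control siRNA, and 27.3 and 46.4 with LncMyod siRNA. The call for Rps10 stood in 5 of 17 alternatives, with adjusted p from 0.0229 to 0.204 and log2 changes from 0.46 to 0.79. It was lost without scaling and in a fit of the 4 libraries compared, where Rpl23 was the 1 member called. It was also lost without ASC replicate 1, without ASC replicate 2, without control siRNA replicate 1 and without control siRNA replicate 2. With the peak at the start alone it was lost too (adjusted p = 0.163 by limma).

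Rpl23, a large-subunit protein that also binds MDM2, came next. It had 1138 and 1179 bp in QSC, 1204 and 959 bp in ASC, 2585 and 2839 bp with control siRNA, and 1415 and 1826 bp with LncMyod siRNA. Before scaling, the control siRNA libraries were the highest, LncMyod siRNA was intermediate, and QSC and ASC overlapped. The change between control siRNA and ASC was 0.91 (SE 0.18, adjusted p = 0.0559 by limma). It passed without scaling (adjusted p = 0.0153), with quantile normalization (0.0217) and in a fit of the 4 libraries compared (0.0423), and the adjusted p ran from 0.0153 to 0.683 over all alternatives.

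At Rpl23 the peak over the start did not carry this difference. That peak was 906 to 1179 bp wide in all 8 libraries. A separate peak beyond the 3′ end was absent in both QSC libraries and ASC replicate 2, 298 bp wide in ASC replicate 1, 1655 and 1892 bp with control siRNA, and 462 and 775 bp with LncMyod siRNA, and its fold was 2.51 to 2.84. With the peak at the start alone the change was -0.11. The summed peaks of Rpl23 also held an end of 1700001P01Rik, a neighbouring gene.

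**Figure D4:**
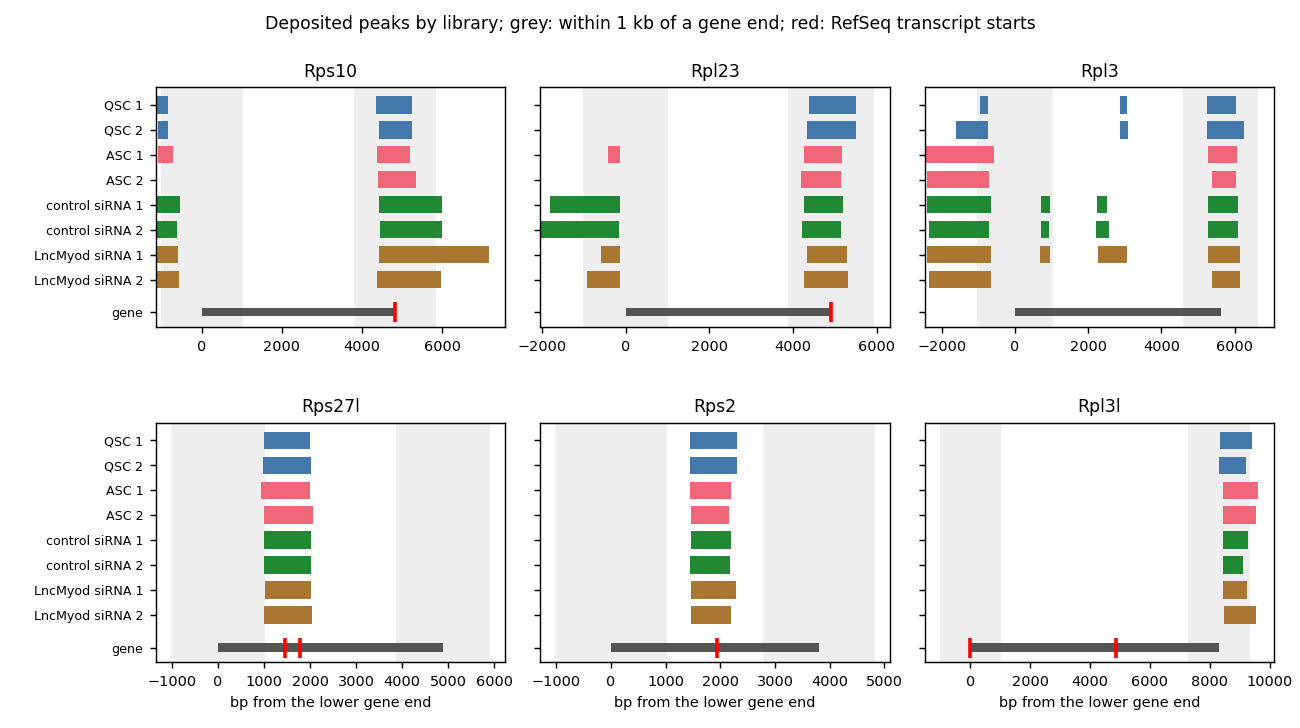
Peaks of each library (bars, colour by group) along 6 genes, in bp from the gene end with the lower coordinate, with the gene as a dark line, annotated transcript starts in red where the table gives them, and grey where a peak counts by the 1 kb rule. Rps10 shows a longer peak over its start in the cultured libraries, Rpl23 and Rpl3 show wide peaks beyond the lower end, Rps27l has its peak at the edge of the grey zone, Rps2 has its peak outside it, and Rpl3l has none at its starts. Peaks are cut at the panel edges.

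Among lower genes in control siRNA against ASC, none passed the test. Rps6, the small-subunit protein that S6 kinases phosphorylate, had 1140 and 1194 bp in QSC, 1263 and 1023 bp in ASC, 946 and 838 bp with control siRNA, and 1047 and 944 bp with LncMyod siRNA. Both control siRNA libraries were below both ASC libraries (log2 change -0.35, SE 0.10, adjusted p = 0.149 by limma). LncMyod siRNA replicate 1 overlapped ASC before scaling only. The scaled means of Rps6 were 1249 bp in ASC and 905 bp with LncMyod siRNA. Rpl10a, a protein of the L1 stalk from which spent transfer RNA leaves, had 1838 and 1627 bp in QSC, 1293 and 1354 bp in ASC, 1081 and 1104 bp with control siRNA, and 1244 and 975 bp with LncMyod siRNA. Its QSC libraries were the highest, and its ASC libraries were above all 4 cultured ones (-0.32, SE 0.11, adjusted p = 0.208).

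By rank, members leaned upwards with control siRNA. For 25 of 73 members (34.2%) both control siRNA libraries ranked above both ASC libraries, against 24.4% of the common genes, and for 9 (12.3%) both ranked below, against 28.8%. The median difference in percentile was 3.55 points for members and -0.59 for all genes. The 25 included Rps6, Rps3, Rps27, Rpl5, Rpl7a and Rpl21, and the 9 included Rpl3, Rpl27 and Rpl30. Rps3, a small-subunit protein that also acts in DNA repair, had percentiles of 74.3 and 51.2 in ASC and of 88.2 and 81.1 with control siRNA. By scaled width 3 members (4.11%), Rpl23, Rpl19 and Rps10, had both control siRNA libraries above, against 6.47% of genes, and 36 (49.3%) had both below, against 61.9%. These counts carry no test.

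LncMyod siRNA was compared with control siRNA to ask whether peaks at these genes differ when LncMyod is targeted. None of the 76 members passed the threshold by limma, where 0.184% of all genes were called higher and 0.171% lower. An unadjusted p under 0.05 by limma was found for 2 of 76 members and for 946 of 14638 genes. The members' median log2 change was -0.08 against -0.07 over all genes, and 13 of 76 were above 0 against 27.9%. Without scaling the medians were -0.01 and 0.00, and 32 members were above 0, and with quantile normalization they were -0.03 and -0.02.

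The lowest p belonged to Rpl23, whose widths are given above (log2 change -0.68, SE 0.18, adjusted p = 0.349 by limma). Each of its LncMyod siRNA libraries was below each control siRNA library. Rpl35a, a further gene of Diamond-Blackfan anaemia, had 1008 and 1054 bp with control siRNA and 1016 and 770 bp with LncMyod siRNA, which overlap before scaling (-0.21, SE 0.09, adjusted p = 0.772). Of the wider genes, Rps3a1 had 2430 bp in LncMyod siRNA replicate 1 and 800 to 997 bp in the other 7 libraries. The excess in that library was a peak of 1520 bp beyond the gene's lower end with a fold of 2.37, and without that library the change of Rps3a1 was -0.01 in place of 0.43 (SE 0.26, adjusted p = 0.934 by limma). LncMyod siRNA replicate 1 is the library with the most covered sequence.

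Counts without overlap leaned neither way beyond the other genes by rank. In 17 members (23.3%) both LncMyod siRNA libraries ranked above both control siRNA libraries, against 24.8%, and in 10 (13.7%) both ranked below, against 17.1%. By scaled width 3 (4.11%) were above, against 6.08%, and 20 (27.4%) below, against 22.9%.

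**Figure D5:**
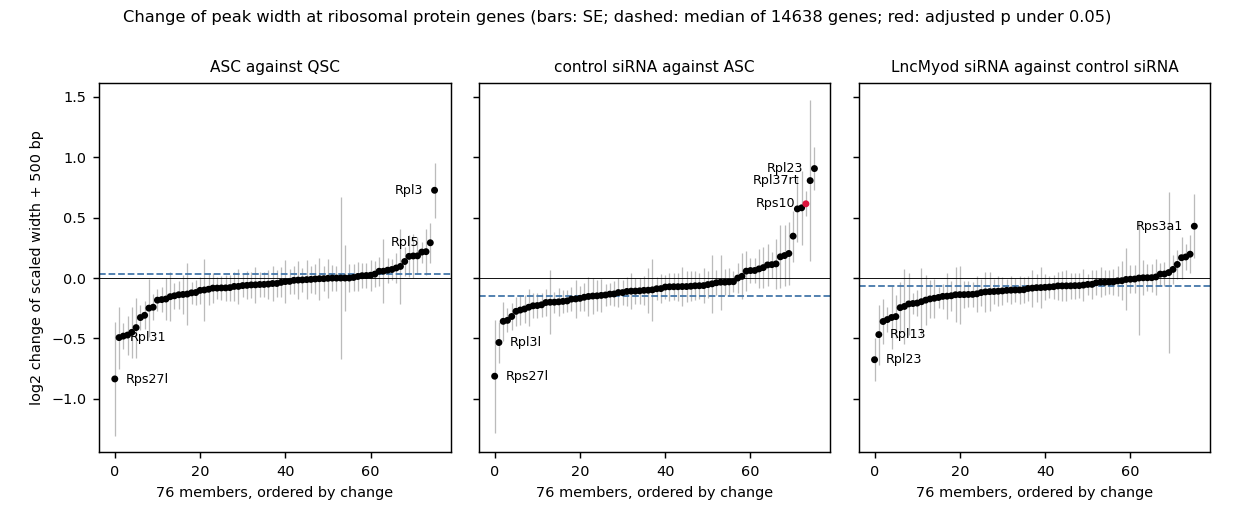
Log2 change of scaled peak width + 500 bp (points, with the SE of the limma fit as bars) for the 76 members tested, ordered within each of the 3 comparisons, with the median of all 14638 genes dashed. Rps10 in control siRNA against ASC, in red, is the only member with an adjusted p under 0.05, and Rpl3 in ASC against QSC and Rpl23 in the other 2 comparisons lie at the ends.

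Among the 73 members with a peak in every library, the coefficient of variation of the scaled width was lowest for Rpl30 (8.58%), Rpl4 (9.24%), Rpl13a (9.43%) and Rpl34 (9.67%), and highest for Rpl31 (46.8%), Rpl23 (41.2%), Rpl13 (38.8%), Rps3a1 (35.2%) and Rps10 (34.7%). Rpl30, which encodes a large-subunit protein, had 956 and 996 bp in QSC, 992 and 934 bp in ASC, 1033 and 1013 bp with control siRNA, and 1048 and 1011 bp with LncMyod siRNA. These unscaled values were slightly higher in the cultured libraries, but the scaled means were 1025 bp in QSC, 1060 bp in ASC, 1001 bp with control siRNA and 940.4 bp with LncMyod siRNA, so that scaling turned the direction. At Rpl31 a single library stood out, with 1743 bp in QSC replicate 2 and 646 to 886 bp in the other 7. Rps19 is the small-subunit gene most often mutated in Diamond-Blackfan anaemia. Before scaling it ranged from 1478 bp in LncMyod siRNA replicate 2 to 1879 bp in ASC replicate 2 and LncMyod siRNA replicate 1. The unscaled LncMyod siRNA pair thus spanned the values of every other library.

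Other genes of the ribosome and its supply were taken from lists chosen with earlier results of these data known. Of 7 cytosolic ribosome genes whose symbols fall outside the rule, Rpsa rose with control siRNA against ASC and fell with LncMyod siRNA against control siRNA. Rpsa, a small-subunit protein also known as a laminin receptor, had 1055 and 1093 bp in QSC, 917 and 986 bp in ASC, 3250 and 3303 bp with control siRNA, and 807 and 652 bp with LncMyod siRNA. The control siRNA libraries were far above the other 6 (log2 changes 1.26 and -1.68, SE 0.11 each, adjusted p = 0.00668 and 0.00821 by limma). Rplp0, Rplp1, Rplp2, Fau and Rack1 did not pass in any comparison.

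Of 28 ribosome biogenesis genes, 26 were tested. Rrs1, a factor of large-subunit assembly, rose in ASC against QSC (0.69, SE 0.12, adjusted p = 0.0440 by limma). It fell with control siRNA against ASC (-0.87, SE 0.12, adjusted p = 0.0224 by limma). Its width was 1190 and 1107 bp in QSC and 2109 and 1986 bp in ASC. With control siRNA it was 1022 and 1039 bp, and with LncMyod siRNA 1564 and 891 bp. Of 11 translation factors with TOP messenger RNAs, Eif3f, an initiation factor subunit, rose in ASC against QSC (0.91, SE 0.14, adjusted p = 0.0252) and Eef2, which moves the ribosome along the message, fell (-0.80, SE 0.12, adjusted p = 0.0242). None of the 11 genes of mTORC1 and Myc control passed in any comparison. Of 74 mitochondrial ribosomal protein genes tested, Mrpl11 rose with control siRNA against ASC (0.85, SE 0.11, adjusted p = 0.0152) and fell with LncMyod siRNA against control siRNA (-1.06, SE 0.11, adjusted p = 0.0255). In each of these lists 1 gene at most moved in a direction. Over all genes tested, 1.81% were called higher and 0.963% lower in ASC against QSC, and 1.05% and 1.91% in control siRNA against ASC. In LncMyod siRNA against control siRNA the shares were 0.184% and 0.171%. For the list genes, alternative settings and the place of the peaks behind each width are not given here. The list medians in control siRNA against ASC were -0.15 for biogenesis, -0.14 for translation factors and -0.13 for mitochondrial ribosomal proteins, beside -0.15 for all genes and -0.09 for the cytosolic ribosomal protein genes.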

How the data were processed

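ATAC-seq peaks of 8 libraries of mouse satellite cells were used, with 2 libraries in each of 4 groups taken from the sample titles. The submitters' processing notes name MACS2 2.1.1 and bedtools 2.26.0, the read tools Bowtie2 2.3.2, SAMtools 1.3, Picard 2.9.2, Trimmomatic 0.36 and bcl2fastq 2.19, and the build mm10. Not given in the sources used here are their settings, any shift of read ends for the transposase and the filter applied to peaks. Each deposited file is the authors' list of broad peaks of 1 library, with a display score, a fold enrichment (a ratio over background), a −log10 p and a −log10 q for each peak. Fold was used to rank peaks within a list and to describe single peaks, −log10 p and −log10 q only to filter lists, and the deposited score was not used in a result.

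Peaks within 1 kb of either end of a RefSeq GRCm38.p6 protein-coding gene were assigned to it, and a peak can belong to several genes. Their summed width was scaled to the mean covered length of the 8 libraries and tested as log2(bp + 500) by limma 3.58.1 (R 4.3.3) with a trended prior over 4 group means and 8 libraries. Genes with a peak in at least 2 libraries entered, and the Benjamini-Hochberg adjustment was made within a comparison, with a threshold of 0.05. The fit was tested on simulated data. Ranks and motifs were computed with numpy 2.4.6 and pandas 2.3.3. Of the 83 genes, 20 have no promoter entry in the table used.

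Members and lists were chosen with earlier results of these data known, and 3 genes (Rpl37rt, Rps23rg1 and Rpl32l) were classed as paralogs or others after the gene table was seen. Named genes were the 3 with the lowest p in each direction of a comparison, the 5 widest, narrowest, highest and lowest ranked, those without a peak in some library, and a set chosen for their roles or paralogs. Rpl17, Rpl18, Rpl30, Rpl31 and others at the ends of the range of variation were named after their values were seen. Some genes that these rules select are not reported here. Alternatives covered scaling, pseudocount, peak threshold, list length, gene ends, filter, samples fitted, the replicate block and each library left out. Replicate numbers were not used to pair the samples in the main fit.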

Additional observations from a re-analysis of the deposited data

How the results depend on the processing

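A peak in all 8 libraries was found for 73 of 83 genes with equal list lengths, 70 at a −log10 q of at least 5, and 67 with overlap of the gene end itself. The members' median percentile of 83.9 within lists became 56.2 among common genes. Over all genes, calls in ASC against QSC were 265 higher and 141 lower of 14638. They were 301 and 240 without scaling, 267 and 270 with quantile normalization, and 484 and 293 of 13928 with equal list length. In control siRNA against ASC the all-gene calls were 154 and 280 of 14638, but 253 and 217 with quantile normalization. They were 113 and 306 of 13123 with the stricter threshold. The count of members called in ASC against QSC was 0, but 1 without scaling and 1 with quantile normalization, 3 with equal list length (Rpl3 and Rpl13 among them), and 0 to 1 when 1 library was left out. In control siRNA against ASC it was 1, but 2 with quantile normalization (Rps10 and Rpl23), 0 with the stricter peak threshold, the gene start only, overlap with the gene end, and the 3 alternatives added after seeing the data (the gene body with 1 kb, the strongest peak only and RefSeq transcript starts), and 0 to 1 with 1 library left out. Both calls with a library left out were Rps27l: without ASC replicate 1 its change in ASC against QSC was -1.65 (adjusted p = 0.0208 by limma), and without ASC replicate 2 its change in control siRNA against ASC was -1.63 (adjusted p = 0.0240), where its peak crosses the 1 kb limit. A lone library left in a group was assumed to vary like the others. In control siRNA against ASC, the 1 member called without scaling and in the fit of the 4 libraries compared was Rpl23, not Rps10. In LncMyod siRNA against control siRNA the count was 0 throughout.

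The members' median log2 change in control siRNA against ASC was -0.09, beside -0.15 over all genes. It was 0.0107 without scaling (all genes -0.03), 0.0743 with quantile normalization (0.01), -0.23 with the stricter threshold (-0.27) and 0.0453 with equal list length (0). In LncMyod siRNA against control siRNA the members' median was -0.08, beside -0.07 over all genes. It was 0.11 with the stricter threshold (all genes 0.11) and -0.00337 with equal list length (0). With 1 library left out the members' medians ran from -0.09 to 0.01 in ASC against QSC and from -0.16 to -0.04 in control siRNA against ASC. They ran from -0.14 to -0.01 in LncMyod siRNA against control siRNA. Over all members, 13 of 76 were above 0 in LncMyod siRNA against control siRNA, but 62 of 74 with the stricter threshold. The shares over all genes were 27.9% and 79.6%. Single genes were followed by setting only where their p was among the lowest of a comparison, and of these the direction turned for 3. Rpl3 in ASC against QSC had -0.17 with overlap of the gene end and with the strongest peak only. Rpl23 in control siRNA against ASC had -0.23 with the stricter threshold, -0.0811 with equal list length, and -0.11 with the start only, overlap, strongest peak and transcript starts. In LncMyod siRNA against control siRNA, Rpl23 had 0.18 with the stricter threshold and 0.26 with equal list length, and Rps3a1 had -0.000807 with equal list length, -0.0674 with the start only, overlap, strongest peak and transcript starts, and -0.0125 without LncMyod siRNA replicate 1 to 0.871 without LncMyod siRNA replicate 2. The cause was not tested beyond which peaks each setting keeps. With the replicate block 1 member (Rps10, adjusted p = 0.0414) was called in control siRNA against ASC and 0 in the other 2 comparisons; deviations of same-numbered libraries had correlations of -0.002 to 0.07, so the numbers give no sign of pairing. Without read counts, depth could not be set aside as a source of width.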

Other observations

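The 4 cytosolic ribosomal protein genes on the X chromosome, which the rule leaves out, each had a peak in all 8 libraries. Rps4x, a small-subunit protein, had 544 to 715 bp, and Rpl36a, a large-subunit protein, had 571 to 980 bp. Rpl39, a small protein of the peptide tunnel, had 837 to 1314 bp. Rpl10, which joins the large subunit late in its assembly, had 1740 and 1705 bp in QSC, 1651 and 1636 bp in ASC, 2169 and 1951 bp with control siRNA, and 1644 and 1126 bp with LncMyod siRNA. At Rpl10 the control siRNA libraries were the highest and held a second peak that the other 6 did not.

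Libraries were also compared by the order of summed widths over the 73 members, as a description over genes. The Spearman correlation between replicates was 0.83 in QSC, 0.82 in ASC, 0.84 with control siRNA and 0.84 with LncMyod siRNA. The highest value of all 28 pairs was 0.92, between LncMyod siRNA replicate 2 and ASC replicate 1, which are libraries of different groups. Over all 12420 common genes that pair had 0.73, and the replicate pairs had 0.78 to 0.85.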
